A study of Mus musculus with 24 samples.

Results

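Transcripts of 74 genes with symbols of heterotrimeric G protein subunits, adenylyl cyclases, cyclic nucleotide phosphodiesterases and regulators of G protein signaling (RGS) were followed in the nucleus accumbens (NAc) of mice. The members were the protein-coding genes whose symbols begin with Gna, Gnb, Gng, Adcy, Pde or Rgs in the forms used for these 6 families, with a mean of at least 10 counts over the 24 libraries. Of 86 genes with such symbols, 74 reached this mean and 12 did not, out of 52636 gene identifiers in all. The members were 12 Gα genes, 4 Gβ genes, 10 Gγ genes, 9 cyclase genes, 22 phosphodiesterase genes and 17 RGS genes. Families went by symbol. Pde4dip, Pde6d, Pde12 and Rgs7bp are therefore counted in them, although their products are not such enzymes or RGS proteins. Gnal, Adcy5, Pde10a and Rgs9, the striatum-enriched genes of the same families, were not members. They serve as a reference for levels and are counted among the other genes of the pathway. Pde6g, with a mean of 14.0 counts, was the member closest to the minimum, and Rgs9bp, with 8.83, was the candidate closest to it from outside.

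RNA-seq was performed on the bilateral NAc, the part of the ventral striatum best known for reward, of C57BL/6 mice (C57BL/6J in the study's methods) at postnatal day 50, each animal giving 1 library. There were 12 Con animals, 6 of each sex, and 12 MSUS animals, also 6 of each sex. MSUS (separation of pups from the dam, combined with unpredictable stress of the dam) was given on postnatal days 1 to 14, for 2 h per day by the labels and 3 h per day by the study's methods, and Con litters were left undisturbed. The litter of each animal was not given, so that p-values measure the spread between these animals, some of which may be littermates.

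A heptahelical receptor that binds its ligand loads GTP onto a Gα subunit, which then parts from its Gβγ partner. Gαs and its striatal relative Gαolf stimulate adenylyl cyclase to make cAMP, Gαi, Gαo and Gαz inhibit it, and Gαq acts through phospholipase C. Phosphodiesterases break down cAMP and cGMP, and RGS proteins end the signal by speeding GTP hydrolysis on Gα. In the striatum, dopamine receptors of the D1 type raise cAMP through Gαolf and Adcy5, whereas dopamine receptors of the D2 type lower it through Gαi and Gαo.

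The sum of sense counts in a library lay between 39923666 and 70575745, with a median of 53316153.5. All 74 members passed the filter on low counts in every comparison. The percentage of uniquely mapped read pairs assigned to no gene was 31.0 to 34.8 in Con females and 36.3 to 43.9 in MSUS females, without overlap. In the males it was 34.7 to 40.6 (Con) and 32.2 to 44.7 (MSUS). Summed normalized counts of 8 markers of cortical excitatory neurons ranged from 10685 to 93248 in Con females (median 31992) and from 2260 to 39519 in MSUS females (median 7167). They ranged from 4625 to 63979 in Con males and from 4445 to 92813 in MSUS males. The 10 markers of striatal projection neurons were detected in every library, with sums between 102986 and 261122, and none of them passed the test in females or males.

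**Figure D1:**
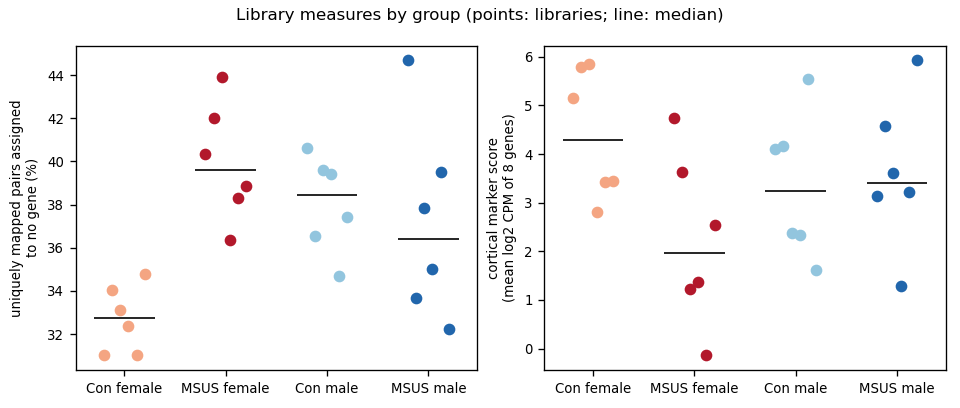
Percentage of uniquely mapped read pairs assigned to no gene (left axis) and a score of 8 cortical excitatory markers (mean log2 of counts per 1000000) (right axis), with a point per library and a line at the median of each of the 4 groups. The unassigned percentage of Con females (31.0 to 34.8) lay below that of every MSUS female (36.3 to 43.9), while the marker scores overlapped between groups.

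Levels of the members were set by counts per kb of exon per 1000000 counted pairs, so that genes of different length could be compared. The family of highest summed level was Gγ, at 340 ± 24.9 (SD, n = 24 libraries), and the lowest was adenylyl cyclase, at 81.9 ± 16.1. Between these lay the phosphodiesterases at 329 ± 32.3, the Gα subunits at 319 ± 16.8, the RGS genes at 318 ± 23.2 and the Gβ subunits at 250 ± 8.04. A level of at least 50 was found for 9 members, a level of 10 to 50 for 31, of 1 to 10 for 22 and under 1 for 12. The reference genes had levels of 77.3 (Gnal), 176 (Adcy5), 111 (Pde10a) and 64.5 (Rgs9). They are not in the family sums, and Adcy5 alone stood above the summed level of the cyclase members. The order of the families therefore holds only for the members by exonic length. With the reference genes added, Pde10a would put the phosphodiesterases above Gγ, and Adcy5 would lift the cyclases out of last place. By mean transcript length Gγ would not lead either. Gnao1 (447) and Gnas (252) would then together exceed the Gγ genes, which were led by Gng7 (334).

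Among the Gα subunits the highest level was that of Gnao1, encoding Gαo, the main Gα of neurons, at 68.8 ± 3.98. Gnas, whose locus encodes Gαs and several other transcripts counted together here, followed at 46.3 ± 9.85 and was below Gnao1 in all 24 libraries. Gnas and the next gene, the inhibitory subunit Gnai1 at 41.6, did not separate, since Gnas was the higher in 16 of 24 libraries. Gna14 and Gna15, members of the Gq family, were lowest at 0.225 and 0.827.

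Gnb1 made up 54.0% ± 3.85 (SD) of the summed Gβ level, at 135 ± 10.7. Gnb5, the Gβ that pairs with RGS proteins of the R7 type, and Gnb2 followed at 55.3 and 52.5, and the first was higher in only 15 of 24 libraries. Gng7, the Gγ partner of Gαolf in the striatum, had the highest level of all members at 218 ± 41.4 and made up 63.6% of the Gγ level. The neuronal Gγ gene Gng3 was next at 58.2 ± 8.72, below Gng7 in every library.

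The calcium-stimulated cyclase gene Adcy1 had a level of 25.9 ± 10.7 and Adcy2, a cyclase stimulated by Gβγ, one of 21.5 ± 4.39. Pde1b, a calcium- and calmodulin-stimulated phosphodiesterase, had the second highest level of all members at 148 ± 28.2 and made up 44.5% of its family. The next phosphodiesterase, the cAMP-specific Pde8b, stood at 28.3 ± 4.29. Rgs4, which acts on Gi, Go and Gq subunits, led the RGS genes at 93.3 ± 13.5, and Rgs7bp, a membrane anchor of R7-type RGS proteins rather than an RGS protein itself, followed at 59.3 ± 6.78. With the mean transcript length in place of the exonic length, the leading gene of each of the 6 families stayed in first place. Gng3 and Adcy2 then moved from place 2 to 3, Rgs7bp to 4 and Pde8b to 5. Over all members the order changed, with Gnao1 first at 447, above Gng7 (334), Pde1b (322) and Gnb1 (320).

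**Figure D2:**
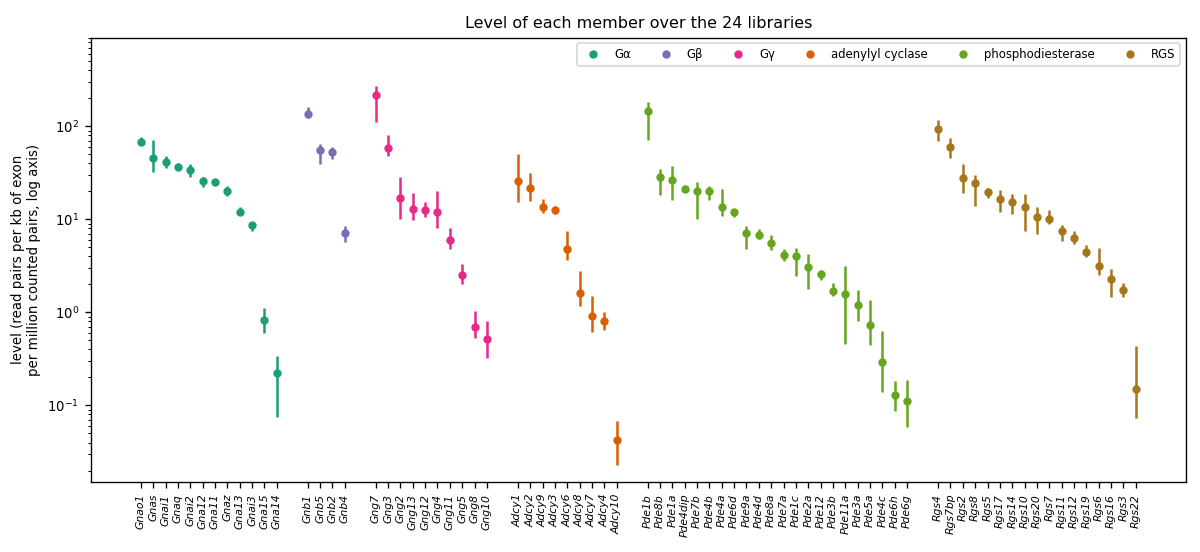
Level of each of the 74 members (counts per kb of exon per 1000000 counted pairs, log axis), grouped by family and ordered by level. Points are means over the 24 libraries and lines run from the lowest to the highest library. Gng7 at 218, Pde1b at 148 and Gnb1 at 135 stand at the top and Adcy10 at 0.0427 at the bottom.

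The spread between animals differed between families. The median coefficient of variation of normalized counts over the 24 libraries was 7.75% for Gα genes, 9.57% for Gβ, 13.2% for RGS genes, 14.7% for phosphodiesterases, 18.5% for Gγ and 23.9% for cyclases. Among members with a mean over 100 normalized counts, Adcy1 varied most, from 9728 to 35261 normalized counts, a coefficient of variation of 43.5%. Adcy1 varied within each group as well, with 41.9% (Con) and 31.4% (MSUS) in the females, 39.9% (Con) and 48.4% (MSUS) in the males. Least variable among the phosphodiesterase symbols were Pde12, a mitochondrial enzyme that cuts RNA rather than cyclic nucleotides, at 5.21%, the scaffold gene Pde4dip at 5.36% and Pde6d, which encodes a carrier of prenylated proteins, at 5.50%.

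MSUS was compared with Con first in females. Of the 74 members, 13 passed the test (edgeR's quasi-likelihood test, Benjamini-Hochberg adjusted p under 0.10), 4 higher and 9 lower in MSUS females, which is 17.6% of the members. At an unadjusted p under 0.05 there were 21 members, beside 32.7% of all genes, and DESeq2 called 18 members, beside 25.8%. Over all 20571 genes tested in edgeR's fit, 25.1% passed, with 13.1% higher and 11.9% lower. In that fit the share among the members was thus below that among all genes. The median log2 fold change, MSUS over Con, was -0.04 over the members and -0.0027 over all genes tested. Lower were 3 of 12 Gα genes (Gnao1, Gnaz and Gna12), 1 of 4 Gβ genes (Gnb1), 2 of 10 Gγ genes (Gng3 and Gng13), 1 of 9 cyclases (Adcy2) and 2 of 17 RGS genes (Rgs3 and Rgs6). Higher were 2 cyclases (Adcy7 and Adcy10) and 2 of 22 phosphodiesterases (Pde9a and Pde11a). Thus in this fit the G protein subunits called were all lower and the 2 phosphodiesterases called were higher, in families where most members did not pass. DESeq2 called 4 members higher and 14 lower. Pde4c was among the lower ones, so the phosphodiesterases called by DESeq2 did not all go one way.

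**Figure D3:**
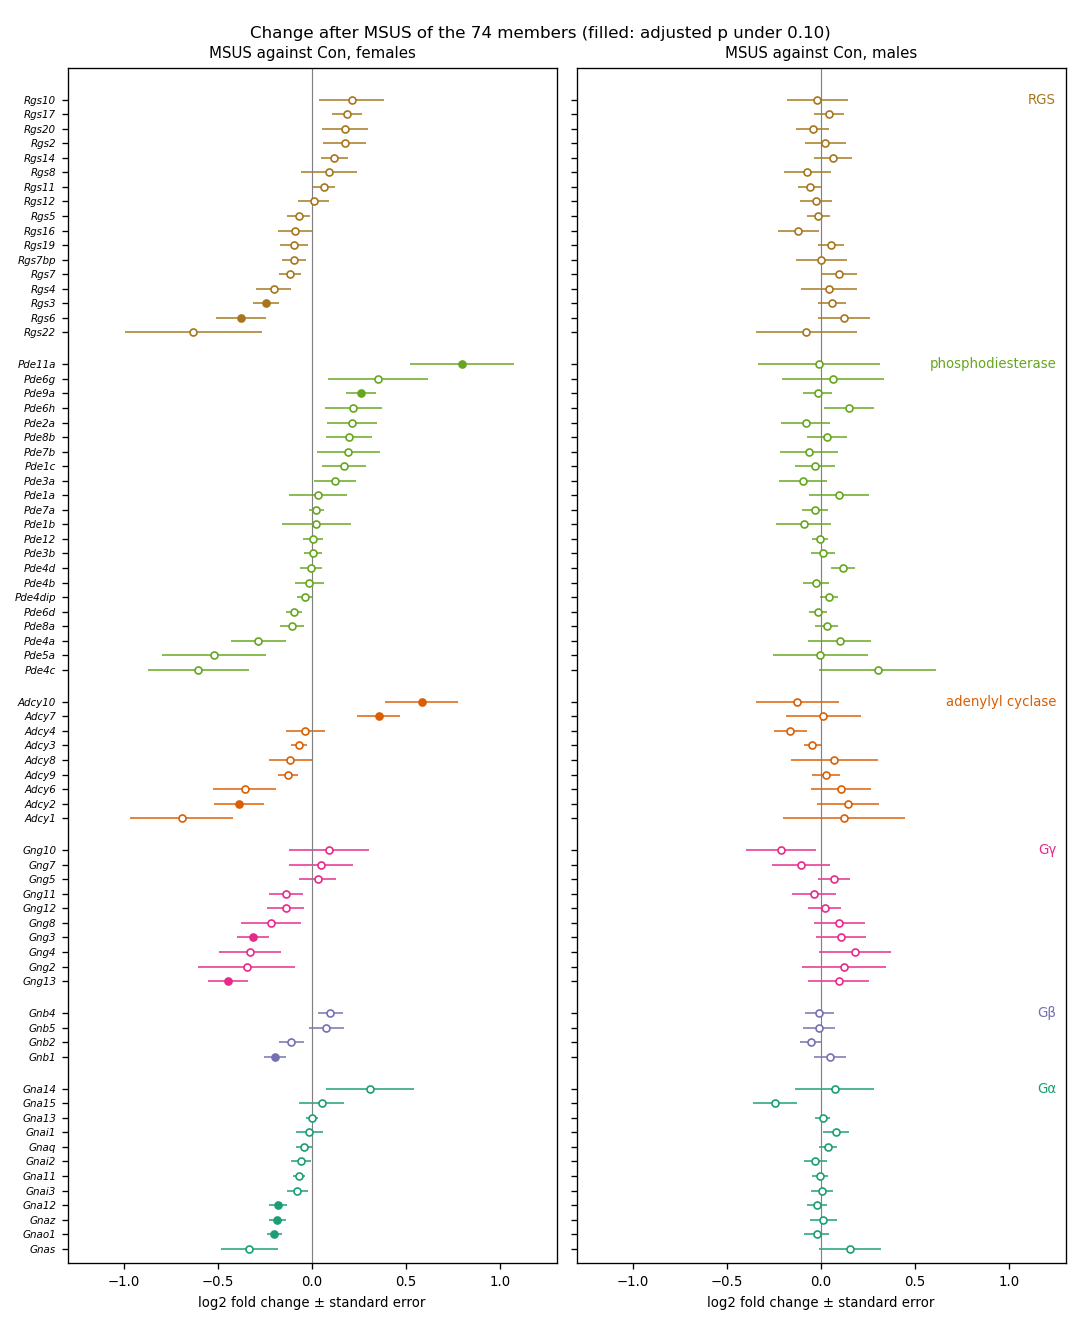
Log2 fold change, MSUS over Con, of the 74 members in females (left) and males (right), with bars of 1 standard error and filled points for an adjusted p under 0.10. The 13 filled points are all in females and run from -0.45 (Gng13) to 0.80 (Pde11a), and no point is filled in males.

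Gnao1 had 40760, 43780 and 45613 normalized counts (lowest, median and highest) in Con females and 36245, 37513 and 39579 in MSUS females. Every MSUS female was thus below every Con female. The log2 fold change was -0.20 (SE 0.04, adjusted p = 0.00831), the smallest p among the members. In Con males Gnao1 ranged from 36545 to 43637 and in MSUS males from 36233 to 44052, so that the MSUS females overlapped both male groups.

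Gnaz, encoding the inhibitory subunit Gαz, had 3900, 4037 and 4544 normalized counts in Con females and 3378, 3657 and 3819 in MSUS females, again without overlap. Its log2 fold change was -0.19 (SE 0.05, adjusted p = 0.0185). Gna12, which encodes the subunit Gα12, ranged from 4395 to 5223 in Con females (median 4728) and from 3967 to 4546 in MSUS females (median 4230), and the groups overlapped although all 6 MSUS females were below the Con median. Its log2 fold change was -0.18 (SE 0.05, adjusted p = 0.0226). Gna12 fell outside the rule for named genes and is described after its values were seen. The 9 other Gα genes did not pass, among them Gnas, with 26793 normalized counts at the median in Con and 23310 in MSUS females (log2 fold change -0.33, SE 0.15, adjusted p = 0.146).

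Of the Gβ genes, Gnb1 had 30368, 31894 and 38098 normalized counts in Con females and 26967, 28375 and 31058 in MSUS females. The highest MSUS female overlapped the lowest Con females, and 6 of 6 MSUS females were below the Con median. The log2 fold change was -0.20 (SE 0.06, adjusted p = 0.0352). Gnb5, in contrast, had a log2 fold change of 0.08 (SE 0.09, adjusted p = 0.608), with groups of 6812 to 11030 and 8619 to 10527 normalized counts.

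Among the Gγ genes, Gng13, whose product is known from taste and retinal cells as well as neurons, had the largest fall of the members called. It had 515, 599 and 784 normalized counts in Con females and 389, 470 and 500.2 in MSUS females, without overlap. The log2 fold change was -0.45 (SE 0.10, adjusted p = 0.0154). Gng3 had 4966, 5310 and 7107 in Con females and 4115, 4468 and 5152 in MSUS females, with overlap, and a log2 fold change of -0.32 (SE 0.09, adjusted p = 0.0282). Gng7, the most abundant Gγ, ranged from 23188 to 55606 in Con females and from 37756 to 50109 in MSUS females, and its log2 fold change of 0.05 (SE 0.17) did not pass (adjusted p = 0.875). The 3 members whose female groups did not overlap were Gnao1, Gnaz and Gng13, all lower in MSUS, beside 7.21% of all genes tested without overlap and 3.41% with every MSUS female below.

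The cyclase genes moved in both directions. Adcy2 had 4325, 4885 and 7416 normalized counts in Con females and 3449, 3889 and 5138 in MSUS females, and its log2 fold change was -0.39 (SE 0.13, adjusted p = 0.0684). Adcy7, a cyclase that Gβγ also stimulates and that is prominent in immune cells, had 232, 254 and 326 in Con females and 288, 331 and 432 in MSUS females. All 6 MSUS females were above the Con median of Adcy7, and the log2 fold change was 0.35 (SE 0.11, adjusted p = 0.0527). Adcy10, the soluble cyclase activated by bicarbonate, rested on few reads, with 10.5, 15.2 and 19.9 normalized counts in Con females and 16.5, 22.1 and 31.5 in MSUS females (log2 fold change 0.58, SE 0.19, adjusted p = 0.0557), and was likewise named after its values were seen.

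Adcy1, the most abundant cyclase among the members, did not pass. It had 13782, 18374 and 35261 normalized counts in Con females and 10586, 12304 and 21991 in MSUS females, so that the groups overlapped widely. Its log2 fold change of -0.69 was the lowest of all members, with an SE of 0.28 and an adjusted p of 0.106. DESeq2 called Adcy1 on the same animals, and edgeR called it in counts without regard to strand. Without MSUS female 1, the highest library of its group, the fold change was -0.89 and Adcy1 was called (adjusted p = 0.0401), as it was without Con female 4, 5 or 6. MSUS female 1 also had the highest cortical marker score of its group (4.74). With that score as a covariate Adcy1 was not called, and the part of the score in its values was not tested. Over all alternatives the adjusted p of Adcy1 ran from 0.0401 to 0.921.

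Of the phosphodiesterases, Pde9a, which hydrolyzes cGMP, had 953, 1293 and 1371 normalized counts in Con females and 1310, 1510 and 1607 in MSUS females. All 6 MSUS females were above the Con median, and the log2 fold change was 0.26 (SE 0.08, adjusted p = 0.0421). Pde11a, which hydrolyzes both cyclic nucleotides, had 126, 286 and 495 in Con females and 365, 539 and 629 in MSUS females. Its log2 fold change of 0.80 (SE 0.28, adjusted p = 0.0701) was the largest rise among the members, with overlap between the groups. The other 20 phosphodiesterase symbols did not pass, including Pde1b (log2 fold change 0.02, SE 0.18, adjusted p = 0.947) and Pde8b (0.20, SE 0.12, adjusted p = 0.278).

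The RGS genes called in edgeR's main fit were both lower. Rgs3 had 940, 1009 and 1222 normalized counts in Con females and 812, 890 and 951 in MSUS females, with a log2 fold change of -0.24 (SE 0.07, adjusted p = 0.0337). Rgs6, a member of the R7 type that pairs with Gβ5, had 1474, 1703 and 2638 in Con females and 1336, 1481 and 1583 in MSUS females, a log2 fold change of -0.38 (SE 0.13, adjusted p = 0.0756). For both genes all MSUS females were below the Con median while the ranges overlapped. Rgs4, the most abundant RGS gene, had a log2 fold change of -0.21 (SE 0.09, adjusted p = 0.149) and Rgs7bp one of -0.10 (SE 0.07, adjusted p = 0.316).

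**Figure D4:**
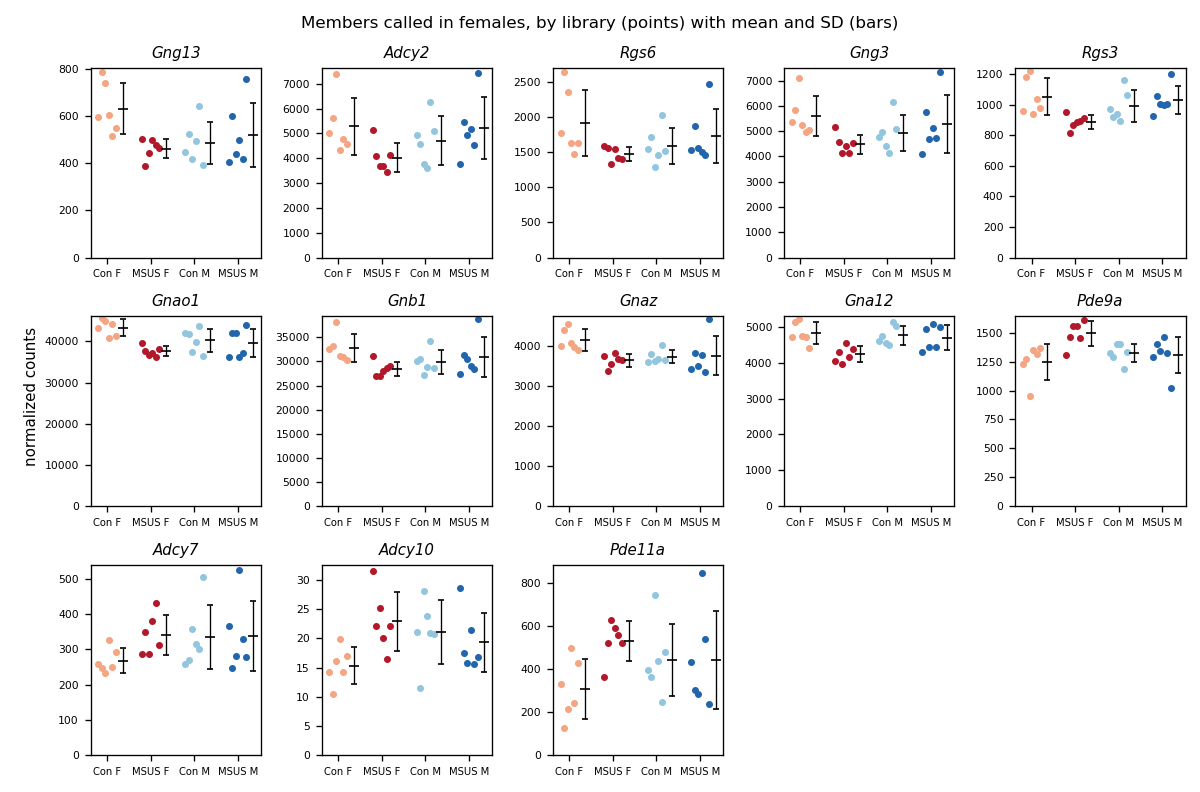
Normalized counts of the 13 members called in females, with a point per library, a mean and SD bar per group, and axes that start at 0 (F, females; M, males). Gnao1, Gnaz and Gng13 show no overlap between Con and MSUS females, and the male groups overlap for all 13.

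Markers of some other cell types moved with the female groups and are given here beside these calls. Of the 8 cortical excitatory markers, all had log2 fold changes below 0 in females (median -1.82) and 3 passed the test, namely Emx1, Fezf2 and Nptx1, with no marker at 0 in any library. Of 7 oligodendrocyte markers 5 were lower (median -0.25), with sums of 204213 to 312103 normalized counts in Con and 186907 to 229730 in MSUS females, and of 5 pericyte markers 3 were lower (median -0.14), with sums of 4549 to 4861 against 3943 to 4499. Of 5 interneuron markers Pvalb and Sst were called lower, while 1 of the 5 had a log2 fold change above 0 (0.33). Of 5 astrocyte markers 1 was called lower, and of 4 oligodendrocyte precursor markers 1. Of 6 microglia and 4 endothelial markers 0 were called. In bulk tissue, fewer cells of a type, less RNA per cell and a different share of cortex in the dissected tissue cannot be told apart. Which of these applies was not tested.

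With the cortical marker score as a covariate, 1 of the 13 members was still called, Gnao1, with a log2 fold change of -0.14, and Pde6d was called as well (-0.17), beside 7.91% of all genes. The fold change of Adcy2 was then -0.08, that of Rgs6 -0.13, that of Gng3 -0.13 and that of Gng13 -0.33. With the percentage of pairs assigned to no gene as a covariate, which did not overlap between the female groups, 0 of the 13 and 0% of all genes were called, and with the spliced share of each library likewise 0. This percentage and the female groups cannot be told apart in these libraries. With the unassigned percentage as a covariate, Gnao1 had a log2 fold change of -0.20, Gng13 one of -0.40, Adcy2 one of -0.53 and Gna12 one of -0.09. All 13 members kept the sign of their fold change in each of these 3 fits. With offsets for GC content and length, 12 of the 74 members were called, 5 higher and 7 lower, beside 13.9% of all genes. In that fit the share among the members was thus above that among all genes. Among them were 7 of the 13, namely Adcy7, Adcy10, Gnao1, Gnb1, Gng3, Gng13 and Pde9a. The others were Gnai3, Pde3b, Rgs7bp, Rgs11 and Rgs14.

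When each female was left out in turn, Gna12, Gnao1, Gnaz, Gnb1, Gng3, Gng13, Pde9a and Rgs3 were called in all 12 fits. Adcy7 was lost without MSUS female 5 only, and Adcy10 without Con female 2, MSUS female 1 or MSUS female 3. Adcy2 was called in 6 of 12 fits, Rgs6 in 5 and Pde11a in 4. Within each library set, numbers 1 to 12 or 13 to 24 with 3 animals per group, all 13 kept their sign and none was called, beside 23 and 0 of all genes tested. Gnao1 had log2 fold changes of -0.23 and -0.17 in these sets, and Gng13 of -0.37 and -0.52. The number of members called ran from 9, without MSUS female 3 or MSUS female 5, to 19, without MSUS female 1. Of all genes, 3102 of 20728, 3753 of 20717 and 5737 of 20707 were called in these fits, in that order.

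**Figure D5:**
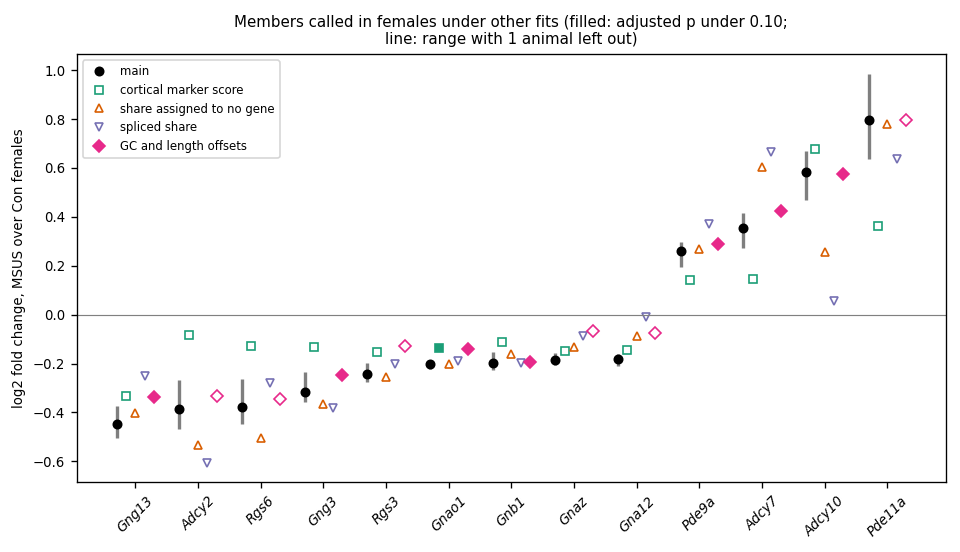
Log2 fold change, MSUS over Con females, of the 13 members called, in the main fit, with 3 library measures as covariates and with GC and length offsets. Filled symbols have an adjusted p under 0.10 and grey lines give the range with 1 animal left out. All 13 members stay on one side of 0, while with the cortical marker score the only filled symbol is that of Gnao1.

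In males, no member was called in edgeR's test, and neither was any of the 20691 genes tested (0%). At an unadjusted p under 0.05 the members counted 0 of 74 beside 0.923% of all genes, and DESeq2 also called 0 members. The median log2 fold change of the members was 0.0088, and their values ran from -0.25 to 0.30. The members called in females had male fold changes between -0.13 and 0.14. The smallest p-values in males were those of Gna15 and Adcy4. Gna15 had 80.5, 97.6 and 113 normalized counts in Con males and 64.6, 84.8 and 91.0 in MSUS males (log2 fold change -0.25, SE 0.12, adjusted p = 1.00), with overlap. Adcy4, a cyclase stimulated by Gβγ, had 179, 204 and 214 in Con males and 153, 183 and 203 in MSUS males (-0.16, SE 0.09, adjusted p = 1.00).

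Whether the effect of MSUS differed between the sexes was tested by the group-by-sex interaction over all 24 animals. No member and none of the 21500 genes passed in edgeR's test, while 13 of 74 members had an unadjusted p under 0.05, beside 18.7% of all genes. The members with the smallest p were Rgs3, with an interaction of -0.31 (female minus male log2 fold change, SE 0.10, adjusted p = 0.202), and Gng13, with -0.54 (SE 0.20, adjusted p = 0.212). The difference between the female and male effects thus did not pass for any member in the full set of animals. Without MSUS male 1, 6 members passed beside 14% of all genes. They were Rgs3 (-0.33), Gng3 (-0.48), Gng13 (-0.60), Gnb1 (-0.28), Adcy2 (-0.61) and Adcy10 (0.84). DESeq2 called 0 members and 2.22% of all genes. MSUS male 1 had the highest unassigned percentage (44.7) and the lowest spliced share (0.309) of the 24 libraries. With the unassigned or the spliced share as a covariate, 1 member had an unadjusted p under 0.05, beside 343 and 359 of 21500 genes. With the cortical marker score it was 0 members, beside 2064 genes. The part of these measures in the interaction was not tested.

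Females were next compared with males, in tests that share their female samples with the comparison above. Among Con animals no member passed, beside 2.64% of all 20641 genes, and 5 members had an unadjusted p under 0.05, beside 17.8%. Gnaz came closest, with 3900 to 4544 normalized counts in Con females and 3589 to 4031 in Con males (log2 fold change, female over male, 0.16, SE 0.05, adjusted p = 0.106). Gng13 followed, with 515 to 784 in Con females and 393 to 641 in Con males (0.38, SE 0.13, adjusted p = 0.158). DESeq2 called both, with an adjusted p of 0.0516 for Gnaz and 0.0952 for Gng13, beside 7.04% of all genes. Without Con male 5, edgeR also called Gnaz and Gng13, beside 6.7% of all genes. With the unassigned share as a covariate 0 members and 11 genes were called. With the spliced share it was 0 and 10, and with the cortical marker score 0 and 39. The 8 cortical markers all had log2 fold changes above 0 (median 0.93), and 0 passed. The part of these measures in this comparison was not tested.

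Among MSUS animals 1 member of 74 passed, Pde8a, beside 0.135% of all 20714 genes, and 12 members had an unadjusted p under 0.05, beside 7.29%. Pde8a, a cAMP-specific phosphodiesterase of high affinity, had 990, 1065 and 1111 normalized counts in MSUS females and 1187, 1301 and 1398 in MSUS males, without overlap. The log2 fold change was -0.29 (SE 0.04, adjusted p = 0.0223). In Con animals its ranges, 1042 to 1323 in females and 1122 to 1454 in males, overlapped, with a log2 fold change of -0.14 (SE 0.08, adjusted p = 0.35). The interaction for Pde8a was -0.14 (SE 0.09, adjusted p = 0.389). The call was lost without MSUS female 2, with the replicate number as a block, in the fit of all 24 animals, and within either library set alone. Rgs3 was next, with 812 to 951 normalized counts in MSUS females and 929 to 1198 in MSUS males (-0.22, SE 0.06, adjusted p = 0.322). In MSUS animals all 7 oligodendrocyte markers had log2 fold changes below 0 (median -0.27). All 7 had an unadjusted p under 0.05 and 1 passed the test. Their part in these values was not tested.

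The members called in females were also compared by features that the rule did not use. The 9 lower members had a median gene span of 72.0 kb and a median transcript GC content of 53.8%, the 4 higher members 90.8 kb and 49.1%, and the 61 not called 47.5 kb and 51.9%. Over all genes, those higher in MSUS females had a median span of 4.34 kb and GC content of 43.4%, and those lower 15.9 kb and 54.8%. The members thus had longer median spans than the genes tested. They are all protein-coding, whereas the genes tested were of every type, so the spans compare unlike sets. In median GC content the lower members stood above the higher ones, as all genes did. The GC ranges of the lower (48.4 to 59.2%) and higher members (46.8 to 53.3%) overlapped.

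Gnao1 lies on chr8:93809966-93969388 (plus strand) of GRCm38, Gnaz on chr10:74967177-75016907, Gnb1 on chr4:155491361-155559269, Gng13 on chr17:25717171-25719406 and Pde8a on chr7:81213596-81334533, all on the plus strand in GENCODE M21. No called member shared exons on its strand with another gene. Among the other members, Gnb2, Gng10, Pde2a, Pde4dip and Pde12 did, and their counts are less certain for that reason.

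Because the cAMP pathway acts on promoters through the cAMP response element, RefSeq promoter windows (250 bases before to 50 after a transcript start, GRCm38.p6) were searched for it. Windows were found for 59 of the 74 members, 96 in all. The full element TGACGTCA was in 0 of 96 windows, beside 1.79% of all 32851 windows, and its core TGACG, which the full element contains, was on either strand in 22 windows (22.9%), beside 20.8%. Of 15 windows of 11 members called in females, 2 held the core, 1 of Gnb1 and 1 of Adcy7. These 2 are shown as the only ones with a match among the called members, and that of Gnao1 as the member with the smallest p. Capitals mark the core on either strand. The Gnb1 window (chr4:155491111-155491410, plus strand) has 2 matches, the Adcy7 window (chr8:88282742-88283041, plus strand) has 1 and the Gnao1 window (chr8:93810588-93810887, plus strand) has 0.
Gnb1: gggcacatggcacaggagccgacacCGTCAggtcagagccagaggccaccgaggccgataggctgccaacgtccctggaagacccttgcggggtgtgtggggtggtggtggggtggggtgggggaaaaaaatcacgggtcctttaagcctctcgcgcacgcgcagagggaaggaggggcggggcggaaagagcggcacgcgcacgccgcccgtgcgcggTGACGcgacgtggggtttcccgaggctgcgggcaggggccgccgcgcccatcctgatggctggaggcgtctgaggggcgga
Adcy7: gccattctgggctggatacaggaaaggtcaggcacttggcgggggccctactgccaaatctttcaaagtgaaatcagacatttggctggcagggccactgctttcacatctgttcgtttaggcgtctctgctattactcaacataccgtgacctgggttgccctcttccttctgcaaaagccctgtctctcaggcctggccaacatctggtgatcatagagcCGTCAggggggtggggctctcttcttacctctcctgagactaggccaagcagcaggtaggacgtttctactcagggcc
Gnao1: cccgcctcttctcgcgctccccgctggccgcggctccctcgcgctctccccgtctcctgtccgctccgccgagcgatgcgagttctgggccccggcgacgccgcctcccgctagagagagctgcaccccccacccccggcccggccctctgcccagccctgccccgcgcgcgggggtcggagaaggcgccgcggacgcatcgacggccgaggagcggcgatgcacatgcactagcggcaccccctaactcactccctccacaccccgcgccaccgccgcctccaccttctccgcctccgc

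The share of windows with the core was thus close to that of all promoters. Among the called members the core was found in Gnb1, called lower, and in Adcy7, called higher. The match is a description of letters in these windows.

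Other genes of the pathway were counted from a list of 47, which included kinases, cGMP-forming enzymes, receptor kinases, effectors and the 4 striatum-enriched reference genes. In females 12 of 47 passed, 4 higher and 8 lower, which is 25.5% beside 25.1% of all genes tested, with a median log2 fold change of -0.01. Lower were the protein kinase A genes Prkaca (-0.15, SE 0.04, adjusted p = 0.0189) and Prkar1b (-0.30, adjusted p = 0.0527), the cAMP-activated exchange factor Rapgef4 (-0.35, adjusted p = 0.0606) and the phospholipase Plcb1 (-0.19, adjusted p = 0.0128), an effector of Gαq. Also lower were the receptor kinase Grk2, the Gα chaperone Ric8a, the soluble guanylyl cyclase gene Gucy1a2 and Hcn2, a channel gated by cyclic nucleotides. The cGMP-dependent kinases Prkg1 (0.30, adjusted p = 0.0874) and Prkg2 (0.42, adjusted p = 0.0343) were higher, as were Grk4 and Cnga3, the last with means of 8.06 normalized counts in Con and 18.1 in MSUS females. The 4 reference genes did not pass in females, with log2 fold changes of 0.07 (Gnal), 0.02 (Adcy5), -0.02 (Pde10a) and 0.10 (Rgs9). In the other 4 comparisons none of the list passed, and Cnga3 was not tested among Con animals because of its low counts.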

How the data were processed

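rRNA-depleted libraries of 24 mice, made without poly(A) selection, were sequenced as 100 bp pairs. According to the methods, the authors trimmed adapters and aligned to mm10 with STAR (2.6.1b in the submitters' processing notes) and the GENCODE M15 annotation. They deposited STAR's raw gene counts in 3 columns, unstranded and for either strand, of which the sense column was used. Pairs with several map positions or several genes are not in these counts, which lowers genes with near-identical copies.

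The members and lists were chosen with earlier results of these data known. GENCODE M21 (GRCm38) held 52489 of the 52636 identifiers. Levels were sense counts per kb of exonic length per 1000000 counted pairs. For normalized counts, each library was divided by its DESeq2 size factor. edgeR's filterByExpr (minimum count 10) set the genes tested, TMM the scaling, and a robust quasi-likelihood fit the p-values, in R 4.3.3 (edgeR 4.0.16, limma 3.58.1, DESeq2 1.42.0). Adjustment was over all genes by the Benjamini-Hochberg method, and 0.10 was the threshold, as in the study. The SE was the fold change divided by the root of the F statistic. Females, males, Con animals and MSUS animals were fitted alone, and the group-by-sex interaction over all 24. Tables and figures were made with matplotlib 3.10.9, pandas 2.3.3, numpy 2.4.6 and scipy 1.17.1 in Python 3.11.15. The procedure was tested on simulated data. Labels give an estrous stage to some males and not to some females, so none was used. Over the 60 pairs of libraries within groups, the lowest chi-square per gene was 6.34, above counting error.

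Named members were the 2 of highest level in each family, up to 6 rises and 6 falls called in females with at least 100 normalized counts on average, the 2 of smallest p in every other comparison, and those whose product is not an enzyme or subunit of the family. Alternatives tried included DESeq2 and edgeR with DESeq2's size factors, other filters, unstranded counts, a replicate block, the library set (numbers 1 to 12 or 13 to 24) as a covariate or alone, 3 library measures as covariates (spliced share, from the study's alignment summary; unassigned share; cortical marker score), GC and length offsets, 1 fit for all 24 animals, an adjusted p under 0.05, and each animal left out.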

Additional observations from a re-analysis of the deposited data

Results flagged for a closer look

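In 12 of 108 combinations of a named member and a group, 1 library lay apart from the other 5 by Dixon's test at 95%, which chance gives in about 1 of 20 groups, and members measured in the same libraries are not independent. Of these, 5 were MSUS male 6. In that library Gnaz had 4664.5 normalized counts, Gnb1 38732.5 and Pde12 1101.7, each the highest of the MSUS males, while Gng7 at 24579 and Pde8b at 6404.2 were the lowest. MSUS male 6 also had the highest cortical marker score of its group, and the part of this in its values was not tested.

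Among the females, Adcy1 was high in MSUS female 1 (21991.4 normalized counts, next 12912), Gnb1 was high in Con female 3 (38097.6, next 33263) and Pde9a was low in that library (952.7, next 1231). Rgs4 was low in Con female 1 (13271.8) and in MSUS female 2 (10942.4), and Pde12 in Con female 2 (912.0). Adcy4 was low in Con male 3 (178.9). Gnb1 and Pde9a were called in females without Con female 3 as well. Con female 3 and MSUS female 1 also had the highest cortical marker scores of their groups, and the part of this was not tested.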

How the results depend on the processing

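The count of members called in females was 13, beside 25.1% of all genes. At an adjusted p under 0.05 it was 8, beside 3126 of 20571 genes. With the cortical marker score as a covariate it was 2, beside 7.91%. It was 0 with the spliced share or the unassigned share of pairs, beside 0% of all genes. Within either library set alone (numbers 1 to 12 and 13 to 24, 3 animals per group) it was 0, beside 23 and 0 of all genes. It was 18 with DESeq2 (25.8% of all genes), 9 with no filter (3667 of 36411 genes) and 17 without regard to strand (6823 of 23506). With GC and length offsets it was 12, beside 2853 of 20517 genes. With 1 animal left out it ran from 9 to 19. The 9 without MSUS female 3 stood beside 3102 of 20728 genes, and the 19 without MSUS female 1 beside 5737 of 20707. In all settings the 13 kept their sign. Among Con animals the count of 0 became 2 with DESeq2, beside 7.04% of all genes. It became 3 without regard to strand (Gnaz, Gng13 and Adcy10), beside 1362 of 23568 genes. With 1 animal left out it was 0 to 2, the 2 being called without Con male 5, beside 6.7%. Among MSUS animals the count of 1 became 2 with library set as a covariate (Pde8a and Gna12), beside 71 of 20714 genes. It became 0 with the replicate block, within library numbers 1 to 12 or 13 to 24 alone and in the fit of all 24 animals. With 1 animal left out it was 0 to 1. The interaction count ran from 0 to 6 with 1 animal left out. In males the count was 0 in every setting.

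Nothing states what the replicate numbers mark, and correlations between animals cannot settle whether they stand for a shared litter or day. Deviations of same-numbered animals correlated over 0.1 in 5 of 6 female and 2 of 6 male pairs, and 1 of 6 correlated best with its own number in each sex. The replicate block gave 12 members in females, 11 of them among the 13, beside 3800 of 20571 genes. It gave 0 members among MSUS animals, beside 20 of 20714 genes.

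Among the named members, sign changes in females (log2 fold change) occurred only for those that were not called. Members that were not named also changed sign, and over all settings the number of the 74 above 0 ran from 26 to 36, beside 32 in the reported fit. With the spliced share they were Adcy4 (0.0938), Gna15 (-0.32), Pde12 (-0.16), Pde4dip (0.0448), Pde6d (0.0228), Pde8a (0.0183) and Rgs4 (0.0292). With the share assigned to no gene they were Adcy4 (0.22), Gna15 (-0.37) and Pde12 (-0.0234). With the cortical marker score they were Gnb5 (-0.0921), Gng7 (-0.21), Pde12 (-0.0080), Pde1b (-0.26) and Pde8b (-0.0082). With GC and length offsets they were Adcy4 (0.0589), Pde12 (-0.11) and Pde4dip (0.0146). Within library numbers 13 to 24 they were Adcy4 (0.11) and Pde1b (-0.0441), within 1 to 12 Pde12 (-0.0173), without regard to strand Pde12 (-0.00015) and Pde1b (-0.0044), and in the fit of all animals Pde12 (-0.00052). With 1 animal left out Adcy4 ran from -0.0927 to 0.0368, Gna15 from -0.0190 to 0.105, Gng7 from -0.0848 to 0.115, Pde12 from -0.0344 to 0.0350 and Pde1b from -0.116 to 0.0889. The cause of these changes was not tested. Male fold changes were recomputed for Gna15 and Adcy4, which kept their sign and stayed uncalled. Adcy10 and Pde6g, with mean counts of 19.6 and 14.0, are the members that depth limits most.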
